A study of Mus musculus with 13 samples.

Results

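Cntln, Rfx3, Slc25a13, Pard3b, Gphn, Klf8, Tnik and BC026585 are 8 of the 47643 genes in the deposited table, and they were chosen for the size of their fall in activated B cells that lack the histone methyltransferase Whsc1. The values that chose them are the normalized counts of the Whsc1-KO and WT libraries, so the levels below describe the genes and no test of that contrast is given for them. All 8 passed the filter on low values, a normalized count of at least 10 in 6 libraries or more, which left 13947 genes to test.

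The RNA came from splenic B cells of C57BL/6 mice in 2 groups, 6 Whsc1-KO libraries (Whsc1-/-) and 7 WT libraries. Whsc1-KO embryos die before birth, so both groups were grown from fetal liver cells of littermate embryos, transplanted into irradiated RAG1-KO hosts, which lack mature lymphocytes but keep their own other tissues. Cells carrying CD43 were depleted to leave resting B cells, which were activated in culture with 25 µg/ml lipopolysaccharide (LPS), a bacterial cell wall component, for 48 h. Poly-A RNA was sequenced, and the libraries are described as biological replicates. The age and sex of the animals are not given in the sources used here.

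Whsc1, also called NSD2, is an enzyme that places H3K36me2, a methyl mark spread over active gene bodies and the DNA between genes. It is known in people from Wolf-Hirschhorn syndrome and from the chromosome translocations of multiple myeloma that raise its level. The 8 genes do not form one pathway. Rfx3 and Klf8 encode DNA-binding proteins, Tnik a protein kinase, Cntln, Pard3b and Gphn scaffold proteins, and Slc25a13 a mitochondrial carrier, while BC026585, listed as Cryzl2 in GENCODE M21, is given no role here.

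RefSeq promoter sequences (GRCm38.p6, 250 bases before to 50 after the start) were at hand for 7 of the 8 genes, all but Tnik. Those of 4 genes are shown, because they span the range from the least RNA left (Cntln) to the most (BC026585) and differ in the letters they share. Capitals mark exact matches, on either strand, to the GC box GGGCGG, the ETS core CCGGAAG and the CACCC box CCACCC. The TATA box TATAAA, the CCAAT box CCAAT and the E-box CACGTG were searched in the same way.
Cntln, chr4:84884059-84884358, plus strand: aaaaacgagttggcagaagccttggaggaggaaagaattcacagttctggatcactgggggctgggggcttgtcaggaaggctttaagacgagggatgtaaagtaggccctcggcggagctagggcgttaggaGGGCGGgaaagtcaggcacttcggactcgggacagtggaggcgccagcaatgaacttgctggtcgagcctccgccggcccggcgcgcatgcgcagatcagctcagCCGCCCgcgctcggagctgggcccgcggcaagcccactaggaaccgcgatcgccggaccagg
Rfx3, chr19:28011117-28011416, minus strand: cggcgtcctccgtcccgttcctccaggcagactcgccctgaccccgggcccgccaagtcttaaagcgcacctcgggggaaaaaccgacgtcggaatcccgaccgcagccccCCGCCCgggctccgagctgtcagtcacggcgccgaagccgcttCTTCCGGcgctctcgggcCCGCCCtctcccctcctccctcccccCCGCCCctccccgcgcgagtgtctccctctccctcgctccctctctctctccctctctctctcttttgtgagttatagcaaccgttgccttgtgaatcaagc
Gphn, chr12:78226405-78226704, plus strand: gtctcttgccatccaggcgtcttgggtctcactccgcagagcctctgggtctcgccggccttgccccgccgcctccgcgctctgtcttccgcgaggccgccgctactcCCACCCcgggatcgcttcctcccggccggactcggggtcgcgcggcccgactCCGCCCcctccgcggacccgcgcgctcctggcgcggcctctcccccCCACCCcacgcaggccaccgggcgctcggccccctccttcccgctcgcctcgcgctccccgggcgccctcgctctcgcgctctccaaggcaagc
BC026585, chr1:157458318-157458617, plus strand: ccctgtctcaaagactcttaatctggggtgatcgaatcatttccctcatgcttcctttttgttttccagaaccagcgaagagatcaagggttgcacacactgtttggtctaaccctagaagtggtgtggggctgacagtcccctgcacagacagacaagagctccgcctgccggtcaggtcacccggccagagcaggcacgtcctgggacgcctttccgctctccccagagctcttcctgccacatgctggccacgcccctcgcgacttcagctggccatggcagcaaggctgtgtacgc

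No motif was present in the promoters of all 7 genes. The Cntln window held 2 GC boxes, the Rfx3 window 3 GC boxes and 1 ETS core, and the Gphn window 1 GC box and 2 CACCC boxes. Slc25a13 (chr6:6217124-6217423, minus strand) had 1 CCAAT box and 1 E-box, both Klf8 promoters had 1 GC box and 3 CACCC boxes each, and Pard3b and BC026585 had no match. In the second Klf8 promoter the GC box and a CACCC box shared bases. For comparison, 27025 promoters were searched, 1 per gene symbol. Of these, 35.9% held a GC box, 30.9% a CACCC box, 37.9% a CCAAT box, 14.2% a TATA box, 9.12% an ETS core and 7.24% an E-box. The windows also differed in CpG number, the base step at which DNA is methylated. It was 42 in Gphn, 31 in Rfx3, 26 in both Cntln and Pard3b, 17 in Slc25a13 and 12 in BC026585. The pair of Klf8 promoters had 5 and 8, and the median of the 27025 promoters was 7. These matches are a description of letters and not of binding.

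The libraries held 39101317 to 49443099 reads in genes in Whsc1-KO and 38881663 to 53019516 in WT, so that 1 read was worth 0.888 to 1.2 normalized counts. Whsc1 itself averaged 4562 ± 624 normalized counts in Whsc1-KO and 6613 ± 718 in WT (SD, n = 6 and 7), 69.0% of the WT mean, with every Whsc1-KO library under every WT library. That value counts the whole gene and does not test the deleted part. Markers of B cells were high throughout, with the 6 markers summing to 223111 to 299462 in Whsc1-KO and 338410 to 394199 in WT, and T cell markers summed to at most 22.8. Whsc1-KO replicates 4 to 6 stood apart from replicates 1 to 3 by their myeloid markers, which summed to 11809 to 16085 and 2475 to 2781 normalized counts, against 1054 to 2031 in WT. Their erythroid markers summed to 12898 to 194381, those of Whsc1-KO replicates 1 to 3 to 2562 to 3043, and those of WT to 861.0 to 3320. Of these markers 5 of 7 myeloid and 4 of 6 erythroid genes were higher in Whsc1-KO, and Ly6g of neutrophils stayed at or under 0.91 in Whsc1-KO and 2.02 in WT. Xist, transcribed from an inactive X chromosome, was high in Whsc1-KO replicates 4 and 5 and WT replicates 1 to 5. The Y-linked genes Ddx3y, Eif2s3y, Kdm5d and Uty were at 0 in those libraries. They were high in the others, 4 of the Whsc1-KO and 2 of the WT libraries, so the groups differed in their share of libraries with Y-linked RNA. Values without Whsc1-KO replicates 4 to 6 are therefore given beside named genes where leaving them out ends or adds a call or clearly shrinks the fold change, and the part that other cells play in them was not tested.

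In all 8 genes every Whsc1-KO library lay under every WT library, as held for 10.2% of all tested genes. The Whsc1-KO mean was 0.983% of the WT mean in Cntln and 8.87% in BC026585, with a median of 3.61% over the 8 genes (3.91% without Whsc1-KO replicates 4 to 6). All 8 were under 15%, where 0.269% of genes averaging 100 or more in WT were found, and 7 were under 5%, where 0.0741% were. Because the genes were chosen on this contrast, these shares say nothing more about them. Which genes were under 5% also depended on the libraries used. Pard3b stood at 5.97% and Tnik at 5.76% without Whsc1-KO replicates 4 to 6, and Klf8 at 5.58% without WT replicate 3. In bulk RNA, fewer cells with a transcript and less of it per cell cannot be told apart.

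**Figure D1:**
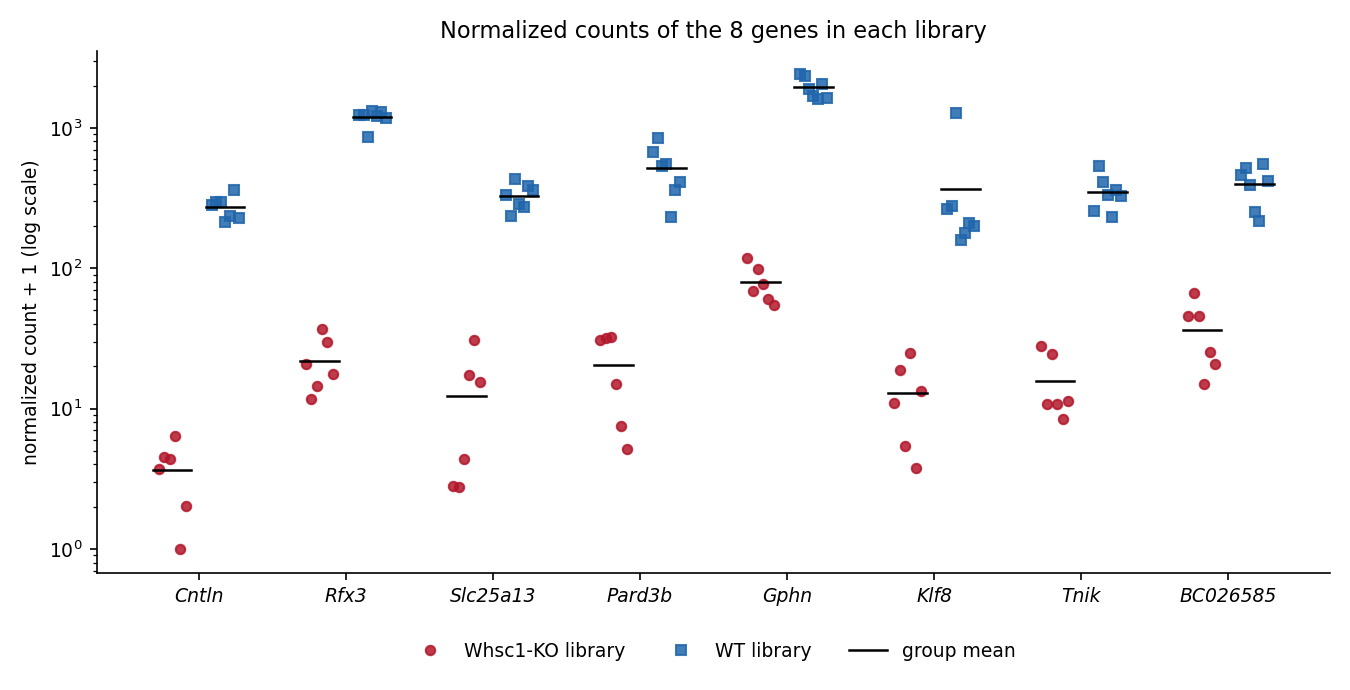
Normalized count plus 1, on a log axis, of each of the 8 genes (horizontal axis) in every library. Red circles are the 6 Whsc1-KO libraries and blue squares the 7 WT libraries, each in order of replicate number, and black lines are group means. The groups are apart in every gene, and the Whsc1-KO points of Slc25a13 spread from 1.78 to 29.8 normalized counts before 1 was added.

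Rfx3 encodes a transcription factor of the regulatory factor X family, which in the mouse switches on genes needed to build cilia. Its normalized counts were 19.9, 10.7, 13.4, 35.8, 28.9 and 16.6 in Whsc1-KO replicates 1 to 6, from 12 to 33 reads. The WT libraries ran from 860.3 to 1316 with a median of 1226. A small amount of Rfx3 RNA was thus counted in every Whsc1-KO library, and the lowest WT library was 24.0 times the highest Whsc1-KO library. The means were 20.9 ± 9.66 in Whsc1-KO and 1187 ± 151 in WT (SD, n = 6 and 7), or 1.76%, and the log2 fold change was -5.87 (SE 0.23). Rfx3 spans 249.4 kb of chromosome 19 (GRCm38, 27761721 to 28011166, minus strand).

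Klf8 encodes a Krüppel-like zinc finger protein that binds CACCC boxes. It had 9.96, 17.8, 4.46, 23.9, 2.80 and 12.5 normalized counts in Whsc1-KO replicates 1 to 6, and between 158 and 1272 in WT with a median of 209. The highest WT value came from replicate 3 alone, and the other WT libraries reached at most 275. The means were 11.9 ± 7.99 in Whsc1-KO and 364 ± 402 in WT, or 3.26%, and 5.58% without WT replicate 3. Whsc1-KO replicate 5 had 3 reads and replicate 4 had 22. The log2 fold change was -4.68 (SE 0.52). Klf8 lies on the X chromosome (153237466 to 153396132, plus strand). In libraries low in Xist it had 4.46 to 17.8 normalized counts in Whsc1-KO replicates 1, 2, 3 and 6, against 197 and 209 in WT replicates 7 and 6.

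Tnik encodes a germinal centre kinase that binds TRAF2 and NCK and acts on the actin skeleton and, in intestinal cells, on Wnt target genes. Whsc1-KO replicates 1 to 6 had 27.2, 9.76, 23.4, 9.76, 7.45 and 10.4 normalized counts, and WT libraries had between 230.0 and 529 with a median of 331. Whsc1-KO replicates 1 and 3 held more than the other 4, which lay close together at 8 to 11 reads each. The means were 14.7 ± 8.38 in Whsc1-KO and 349 ± 100.2 in WT, or 4.20%, with a log2 fold change of -4.59 (SE 0.29). The gene covers 412.6 kb of chromosome 3 (28263214 to 28675858, plus strand).

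Cntln encodes centlein, a centrosome protein that in human cells takes part in holding the centrioles of a pair together. It came nearest to complete loss: its 6 Whsc1-KO libraries held 3, 4, 3, 5, 0 and 1 reads, or 2.72, 3.55, 3.35, 5.42, 0 and 1.04 normalized counts. WT libraries held 177 to 342 reads, between 212 and 360 normalized counts with a median of 283. Replicate 5 had no read, which at 3 counts allows up to 2.80 normalized counts, or 1.03% of the WT mean. Over all reads, 16 in Whsc1-KO and 1921 in WT, the Whsc1-KO level was 0.961% of WT, with an exact (Clopper-Pearson) 95% interval of 0.548% to 1.57% for counting error only. The means were 2.68 ± 1.93 in Whsc1-KO and 273 ± 51.4 in WT, and the log2 fold change of -6.42 (SE 0.36) depends on the 1 added to each value. No Whsc1-KO library reached 10 normalized counts, so Cntln entered the tested genes through WT alone. Slc25a13, Klf8 and Tnik reached 10 in 3 Whsc1-KO libraries each and Pard3b in 4, so these genes also needed WT libraries to pass the filter. Cntln lies on chromosome 4 (84884309 to 85131921, plus strand).

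Gphn encodes gephyrin, which has 2 known jobs, anchoring glycine and GABA-A receptors at inhibitory synapses and completing the molybdenum cofactor of enzymes such as sulfite oxidase. It kept the most Whsc1-KO reads of the 8 genes, 52 to 130 per library. The normalized counts were 118, 68.3, 97.0, 75.9, 59.6 and 54.0 in Whsc1-KO replicates 1 to 6, and between 1608 and 2397 in WT with a median of 1884. All 6 Whsc1-KO libraries lay between 2.79% and 6.07% of the WT mean. The means were 78.8 ± 24.3 in Whsc1-KO and 1937 ± 328 in WT, or 4.07%, with a log2 fold change of -4.64 (SE 0.17). Gphn spans 458.4 kb of chromosome 12 (78226379 to 78684772, plus strand).

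Pard3b encodes a relative of the cell polarity scaffold PAR3. In Whsc1-KO its normalized counts were 29.9, 31.1 and 31.2 in replicates 1 to 3 but 14.1, 6.52 and 4.15 in replicates 4 to 6. In WT they ran from 232 to 844 with a median of 535. The first 3 Whsc1-KO libraries thus held more than each of the other 3, at 5.97% of the WT mean against 1.6%. The means over all libraries were 19.5 ± 12.7 in Whsc1-KO and 515 ± 205 in WT, or 3.79%, and the log2 fold change was -4.88 (SE 0.45), or -3.92 without Whsc1-KO replicates 4 to 6. WT replicates 1 to 3 averaged more than the later WT replicates as well, and Whsc1-KO stood at 4.48% of WT within the first 3 numbers and at 2.13% within the others. Pard3b is the longest of the 8 genes, 1003.5 kb on chromosome 1 (61638824 to 62642284, plus strand).

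Slc25a13 encodes citrin, the aspartate-glutamate carrier of the inner mitochondrial membrane, which serves the malate-aspartate shuttle and the urea cycle. Its Whsc1-KO libraries divided the other way. Replicates 1 to 3 had 2, 2 and 3 reads, or 1.81, 1.78 and 3.35 normalized counts, and replicates 4 to 6 had 15, 32 and 14 reads, or 16.3, 29.8 and 14.5. WT libraries ran from 233 to 430 with a median of 329.7. Replicates 1 to 3 were thus at or under 3 reads, at 0.707% of the WT mean, whereas replicates 4 to 6 stood at 6.17%. The means were 11.3 ± 11.2 in Whsc1-KO and 327 ± 68.8 in WT, or 3.44%, and the log2 fold change was -5.31 (SE 0.52), or -6.64 without Whsc1-KO replicates 4 to 6. The replicates with more Slc25a13 RNA are those with 11809 to 16085 normalized counts of myeloid markers, against 2475 to 2781 in replicates 1 to 3, and the part of these cells was not tested. Slc25a13 lies on chromosome 6 (6041218 to 6217173, minus strand).

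BC026585 kept the largest share. It had 44.4, 65.7 and 44.6 normalized counts in Whsc1-KO replicates 1 to 3 and 14.1, 24.2 and 19.7 in replicates 4 to 6, and between 215 and 549 in WT with a median of 417. As in Pard3b, replicates 1 to 3 lay above replicates 4 to 6, at 12.9% of the WT mean against 4.84%. The means were 35.5 ± 19.5 in Whsc1-KO and 399 ± 126 in WT, or 8.87%, with a log2 fold change of -3.57 (SE 0.34), or -2.88 without Whsc1-KO replicates 4 to 6. The lowest WT library was only 3.28 times the highest Whsc1-KO library, the narrowest gap of the 8 genes. BC026585 is also the shortest, 34.1 kb on chromosome 1 (157458577 to 157492638, plus strand).

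**Figure D2:**
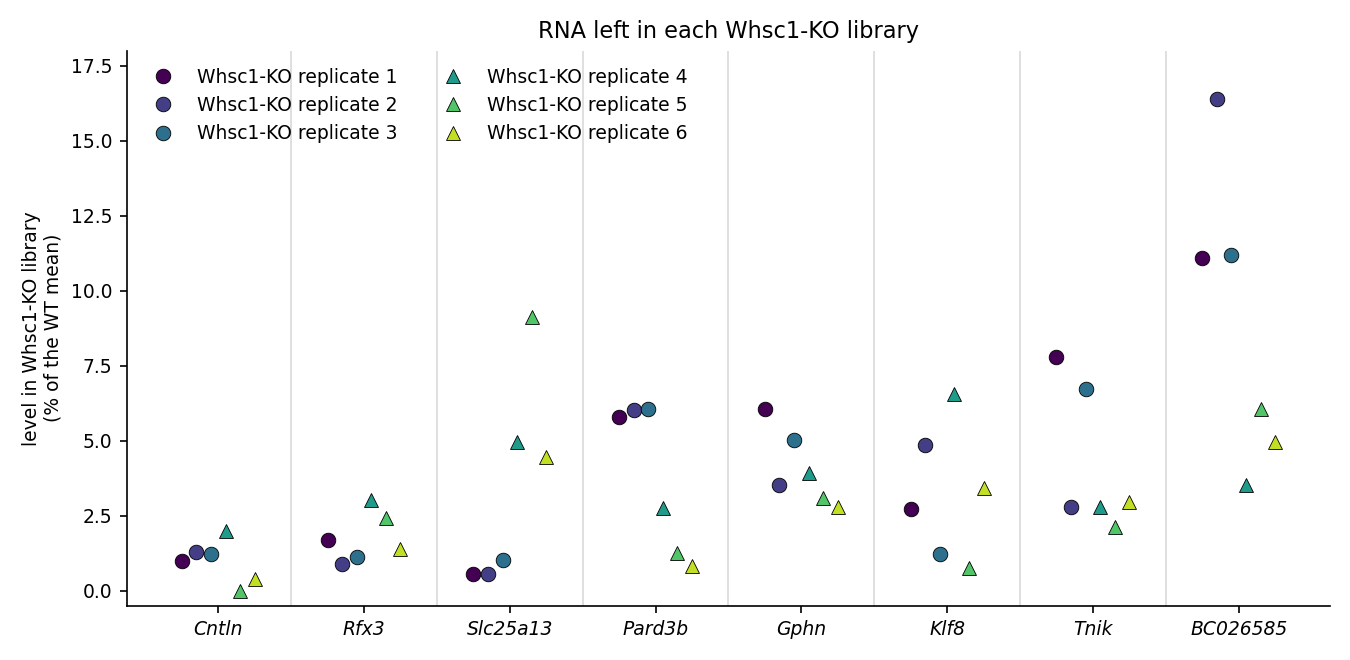
Level in each Whsc1-KO library as a percentage of the WT mean of the same gene (vertical axis) for the 8 genes (horizontal axis). Circles are replicates 1 to 3 and triangles replicates 4 to 6. Triangles lie above circles in Slc25a13 and below them in Pard3b and BC026585, and the highest point is replicate 2 in BC026585 at 16.4%.

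Taking 3 reads or fewer as too few to tell from none, the losses were not all-or-none. Of the 48 values of 8 genes in 6 Whsc1-KO libraries, 8 were at or under 3 reads and 1 was without a read. They belonged to Cntln in 4 libraries, Slc25a13 in 3 and Klf8 in 1, and 5 genes had no such library. This count depends on the WT level of a gene as well as on its loss. In Whsc1-KO replicate 5, 3 reads were 0.144% of the WT mean in Gphn and 0.236% in Rfx3. They were 0.854% in Slc25a13 and 1.03% in Cntln. In 0 of the 8 genes were all 6 libraries at or under 3 reads. Rfx3, Gphn and BC026585 reached 10 normalized counts in every Whsc1-KO library. Nor did 1 library hold the remaining RNA of every gene: Whsc1-KO replicate 4 was highest in 3 genes, replicate 1 in 2, replicates 2, 3 and 5 in 1 each and replicate 6 in none, and the median share over the 8 genes ran from 2.28% in replicate 5 to 4.26% in replicate 1. The files hold 1 value per gene, so which exons or transcripts the remaining reads came from was not analysed here.

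Per kb of annotated exon, the Whsc1-KO order was Gphn at 21.0 ± 6.47 normalized counts, BC026585 at 14 ± 7.71, Slc25a13 at 2.96 ± 2.94, Klf8 at 2.28 ± 1.53, Rfx3 at 1.89 ± 0.875, Pard3b at 1.48 ± 0.969, Tnik at 0.760 ± 0.435 and Cntln at 0.377 ± 0.271. The WT order was Gphn at 517 ± 87.5, BC026585 at 158 ± 49.7, Rfx3 at 108 ± 13.7, Slc25a13 at 86.2 ± 18.1, Klf8 at 70.0 ± 77.3, Pard3b at 39.1 ± 15.6, Cntln at 38.4 ± 7.23 and Tnik at 18.1 ± 5.20. By mean, Gphn therefore stood first and BC026585 next in both groups. In Whsc1-KO, every pair of neighbours in this order except BC026585 and Slc25a13 differed by less than the larger SD of the pair. That includes Gphn and BC026585. In WT the same held for Slc25a13 and Klf8, Klf8 and Pard3b, and Pard3b and Cntln. Exon length is the union over all GENCODE M21 transcripts, so a gene expressed from a short transcript is understated.

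Ordered by fall among the 11071 genes with a group mean of 100 or more, 7 of the 8 genes took the first 7 places and BC026585 the 12th. The 4 other genes above BC026585 were Chic1 with 13.1 normalized counts in Whsc1-KO and 278 in WT (-4.48), Armcx4 with 14.4 and 249 (-4.30), Gm21985 with 67.1 and 304 (-4.20) and Xist (-4.02). The level of Xist differed between libraries of the same genotype. Gm21985 was also uneven, from 0 in Whsc1-KO replicates 1 and 2 to 181 in replicate 3 (SE 1.15), and its Whsc1-KO mean was 22.1% of WT. Just below BC026585 came Cnrip1 with 43.7 in Whsc1-KO and 467 in WT (-3.53), the immunoglobulin segment Igkv2-137 (-3.51) and Slco5a1 with 105 and 942 (-3.46). Igkv2-137 ran from 47.7 to 3457 in Whsc1-KO, its mean was 20.4% of WT, and the groups overlapped. BC026585 at -3.57 and Cnrip1 at -3.53 were nearly equal, so the set has no gap at its edge. In the authors' deposited table, the log2 fold changes without shrinkage were -6.69 for Cntln, -5.84 for Rfx3, -4.86 for Slc25a13, -4.72 for Pard3b, -4.62 for Gphn, -4.58 for Tnik, -4.07 for Klf8 and -3.49 for BC026585.

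Of the 8 genes, 7 were long, a feature the choice did not use. The spans of all 8 had a median of 248.5 kb, against 23.2 kb over the 11988 tested protein-coding genes. Pard3b was longer than 99.9% of these, Gphn than 99.4%, Tnik than 99.2%, Rfx3 and Cntln than 97.5% each, Slc25a13 than 95.4% and Klf8 than 94.6%. BC026585 was the exception and was longer than 62.7%. Not all other genes ranked among or just after the 8 were long. Gm21985 spanned 140.0 kb and Slco5a1 126.1 kb. Chic1 spanned 39.6 kb, Cnrip1 27.8 kb, Xist 22.9 kb, Armcx4 10.2 kb and Igkv2-137 0.7 kb. Spans are from the GENCODE M21 annotation of GRCm38, and no test was made over the chosen genes.

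Genes beside the 8 were then examined in the test over all 13947 genes, in which 25.7% were lower and 26.1% higher in Whsc1-KO (limma, Benjamini-Hochberg adjusted p under 0.05). Of the 32 protein-coding genes flanking them, 2 on each side, 14 were tested, and 5 of these were lower, 1 was higher and 8 did not pass. Their log2 fold changes ran from -1.69 to 0.45 with a median of -0.10, against 0.00 over all tested genes. Because the 8 were chosen for the largest falls, smaller falls in flanking genes were nearly fixed by that choice. The other 18 flanking genes stayed under 10 normalized counts in every WT library. Of the 23 annotated genes lying within or across the 8 spans, 6 that overlap Gphn were not analysed here, and none of the others passed the filter. How the counting treated strand is not given in the sources used here.

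**Figure D3:**
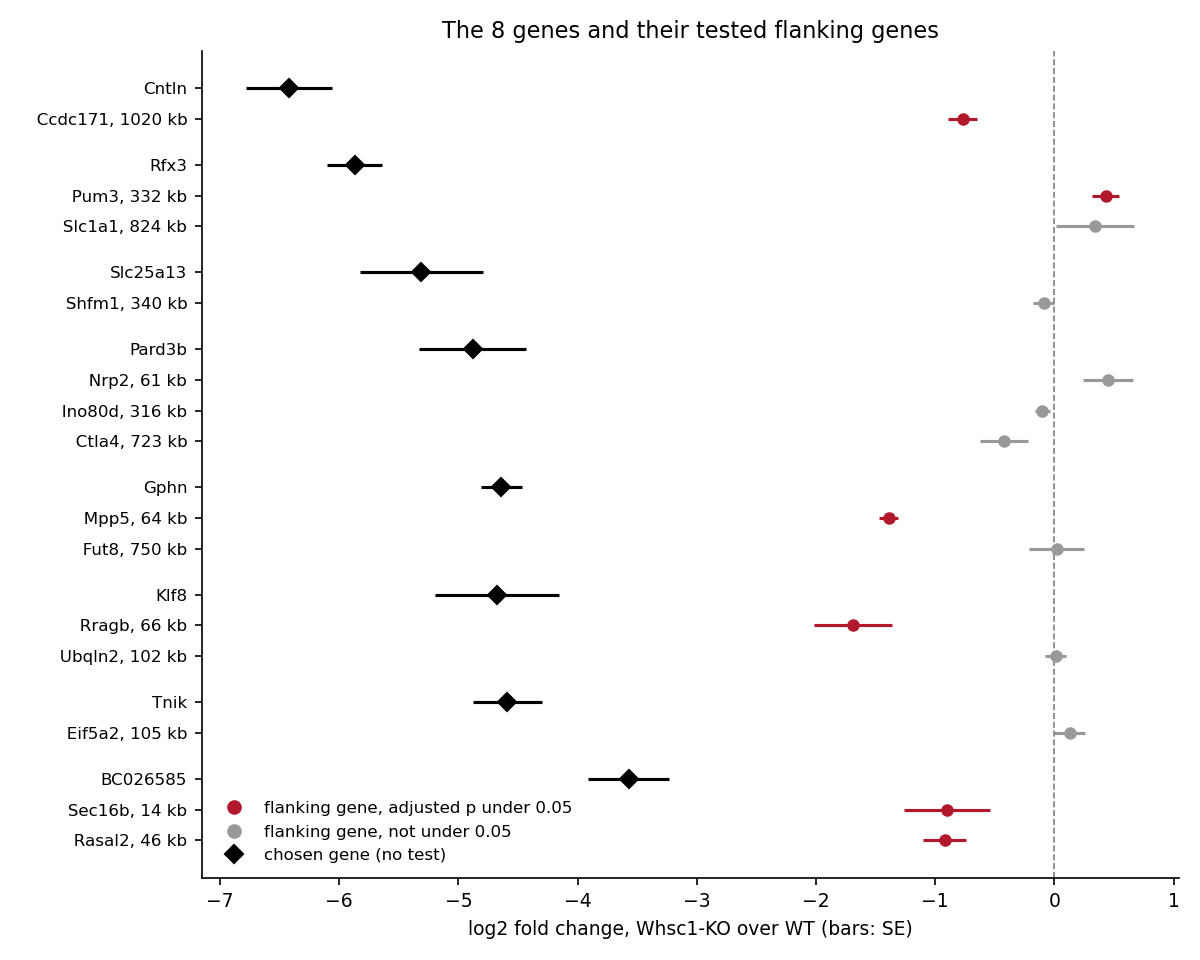
Log2 fold change of Whsc1-KO over WT (horizontal axis, bars are SE) for the 8 genes (black diamonds) and their 14 tested flanking protein-coding genes with the distance in kb. Red points passed the adjusted threshold and grey points did not. The flanking genes lie between -1.69 and 0.45, to the right of all 8 diamonds, which the choice of the 8 for their falls made nearly certain.

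Mpp5, 64.1 kb beyond the end of Gphn on the same strand, encodes the polarity scaffold PALS1. It had 343 to 439 normalized counts in Whsc1-KO and 945 to 1141 in WT, without overlap, and means of 394 ± 37.7 and 1032 ± 73.5 (SD, n = 6 and 7). Its log2 fold change was -1.39 (SE 0.08, limma adjusted p = 4.65e-08), or -1.37 without Whsc1-KO replicates 4 to 6. Fam71d, the gene between Gphn and Mpp5, reached at most 3.65 normalized counts in any library.

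Rragb, which encodes a Rag GTPase of the amino acid branch of mTORC1 signalling, lies 65.5 kb from Klf8. It averaged 37.2 ± 14.9 normalized counts in Whsc1-KO and 125 ± 51.2 in WT (log2 fold change -1.69, SE 0.33, limma adjusted p = 0.00107, or -1.17, 0.0341, without Whsc1-KO replicates 4 to 6), and the groups overlapped. Rasal2, a Ras GTPase-activating protein 46.0 kb from BC026585 on the other strand, averaged 70.0 ± 17.2 in Whsc1-KO and 132 ± 27.7 in WT (-0.92, SE 0.18, limma adjusted p = 0.000954), with every Whsc1-KO library lower. On the other side of BC026585 at 14.1 kb, Sec16b averaged 8.65 ± 5.06 in Whsc1-KO and 16.2 ± 5.98 in WT (-0.90, SE 0.36, limma adjusted p = 0.0482), a call lost with edgeR (0.0631), with DESeq2 (0.0719) and without Whsc1-KO replicates 4 to 6 (-0.30, 0.577). Ccdc171, 1019.6 kb from Cntln, averaged 193 ± 38.5 in Whsc1-KO and 325 ± 28.7 in WT (-0.77, SE 0.12, limma adjusted p = 0.000299, or -0.52 without Whsc1-KO replicates 4 to 6).

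Pum3, an RNA-binding protein gene 331.9 kb from Rfx3, was the 1 flanking gene that was higher, with 3016 ± 410 normalized counts in Whsc1-KO and 2252 ± 367 in WT (0.43, SE 0.11, limma adjusted p = 0.00553). Without Whsc1-KO replicates 4 to 6 its log2 fold change was 0.26 and the adjusted p was 0.123. Among those that did not pass, Nrp2 at 61.0 kb from Pard3b had a log2 fold change of 0.45 (limma adjusted p = 0.0843), Shfm1 near Slc25a13 -0.09 (0.416, or -0.26, 0.0351, without Whsc1-KO replicates 4 to 6), Ubqln2 near Klf8 0.01 (0.902) and Fut8 near Gphn 0.02 (0.961). Fut8 stood at -0.56 (limma adjusted p = 0.0144) without Whsc1-KO replicates 4 to 6.

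Genes that work in the same processes as the 8 were counted next, in 9 lists of 136 genes, of which 116 were tested. Of these, 36 were lower, 30 were higher and 50 did not pass, with a median log2 fold change of -0.09. These shares lie near those over all tested genes, 25.7% lower and 26.1% higher. The largest list median away from 0 was 0.46. Without Whsc1-KO replicates 4 to 6, 27 of the 116 were lower and 19 higher, against 2177 and 1947 of all 13947 tested genes. The share of lower genes in the lists was then above that over all genes, a difference that was not tested.

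**Figure D4:**
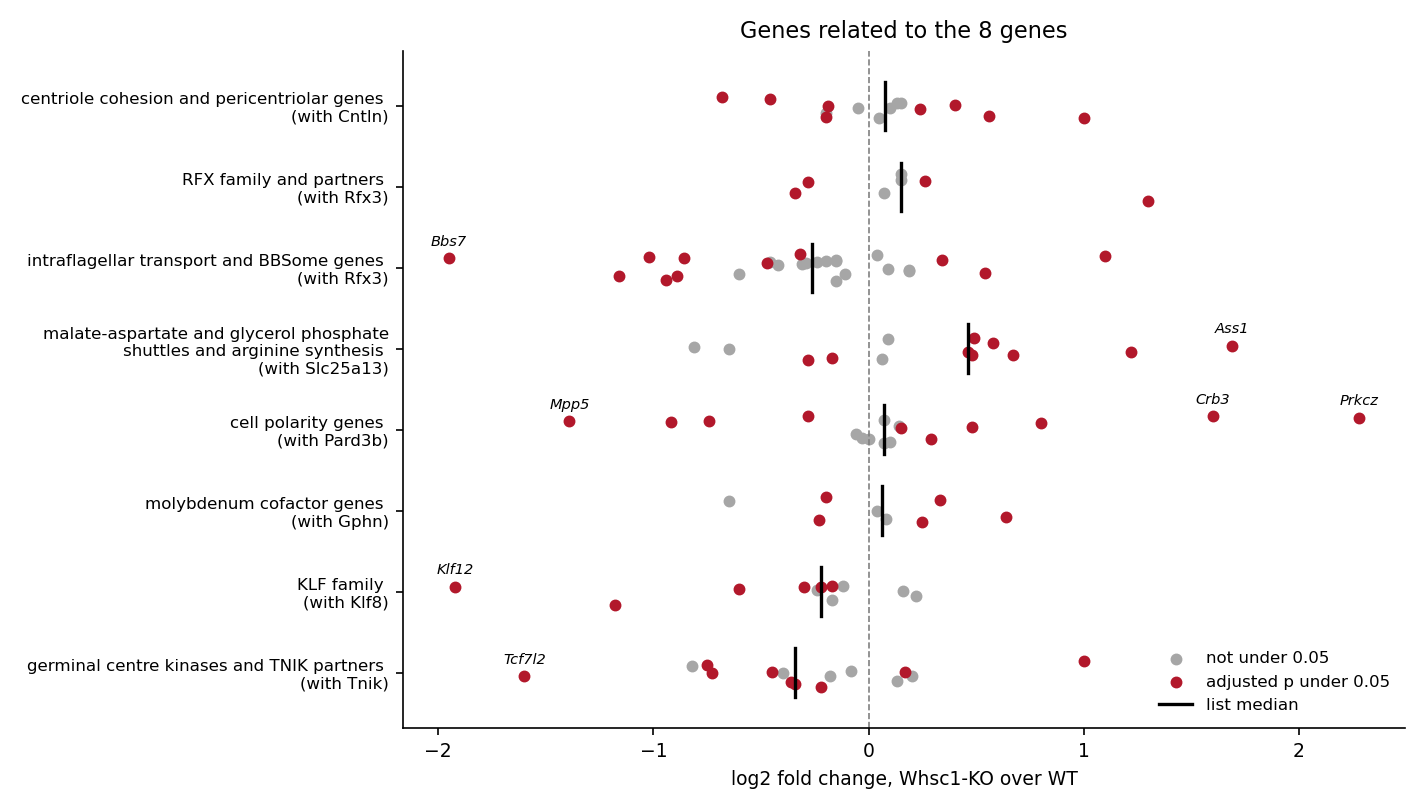
Log2 fold change of Whsc1-KO over WT (horizontal axis) of each tested gene in 8 of the lists related to the 8 genes (vertical axis). Red points passed the adjusted threshold, grey points did not and black bars are list medians. Prkcz lies furthest up at 2.28 and Bbs7 furthest down at -1.95, and list medians lie between -0.34 and 0.46.

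Of the 10 genes of the RFX family and its partners, 7 were tested, of which 2 were lower, 2 were higher and 3 did not pass (median 0.15). Rfx5, a regulator of MHC class II genes, was lower at 4383 ± 613 normalized counts in Whsc1-KO and 5508 ± 214 in WT (log2 fold change -0.34, limma adjusted p = 0.00253), and Rfx7 was lower by a similar step (-0.28, 0.0082). Without Whsc1-KO replicates 4 to 6 the log2 fold change of Rfx5 was -0.16 (limma adjusted p = 0.036) and that of Rfx7 was -0.13 (0.191), and within replicates 1 to 3 of both groups Rfx5 did not pass (-0.12, 0.224). Foxj1, a factor of motile cilia, was higher at 72.4 ± 21.8 in Whsc1-KO and 28.6 ± 7.64 in WT (1.30, limma adjusted p = 0.000582). All 26 intraflagellar transport and BBSome genes, among them known RFX targets, were tested, and 8 were lower, 3 higher and 15 did not pass (median -0.27). Bbs7, a BBSome subunit, was lower at 21.2 ± 10.0 in Whsc1-KO and 79.2 ± 13.3 in WT (-1.95, 6.65e-05), and Ttc21b at 306 ± 48.1 and 619 ± 82.6 (-1.02, 2.05e-05). Ift27 was higher at 1253 ± 209 in Whsc1-KO and 580.1 ± 53.7 in WT (1.1, limma adjusted p = 7.25e-06).

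Of the 16 other KLF genes, 11 were tested, with 6 lower, 0 higher and 5 not past (median -0.22). Klf7 averaged 824 ± 206 normalized counts in Whsc1-KO and 1823 ± 139 in WT (-1.18, limma adjusted p = 2.14e-05, or -0.86 without Whsc1-KO replicates 4 to 6). Klf12 averaged 44.8 ± 30.8 in Whsc1-KO and 142 ± 36.2 in WT (-1.92, 0.00134, or -0.98 without Whsc1-KO replicates 4 to 6), and Klf11 averaged 373 ± 63.6 and 566 ± 92.4 (-0.60, 0.00218). Klf8, chosen for its fall, stood at -4.68.

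Among the germinal centre kinases and TNIK partners, 15 of 16 were tested, with 7 lower, 2 higher and 6 not past (median -0.34). The kinases closest to Tnik, Mink1 and Map4k4, were lower by small steps, Mink1 at 2346 ± 122 normalized counts in Whsc1-KO and 3228 ± 360.3 in WT (-0.45, limma adjusted p = 0.00027) and Map4k4 at 6199 ± 388 and 7867 ± 423 (-0.34, 0.000208). Nedd4, a ubiquitin ligase that works with TNIK in neurons, was higher at 5913 ± 881 in Whsc1-KO and 2976 ± 595 in WT (1.00, 6.03e-05).

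All 14 centriole cohesion and pericentriolar genes were tested, and 4 were lower, 4 higher and 6 did not pass (median 0.07). Cep68, a partner of centlein in human cells, was lower at 2813 ± 475 normalized counts in Whsc1-KO and 4469 ± 278 in WT (-0.68, limma adjusted p = 8.84e-05), as was Cdk5rap2 (-0.46, 0.000201). Without Whsc1-KO replicates 4 to 6 these log2 fold changes were -0.48 for Cep68 and -0.37 for Cdk5rap2. Nek2, the kinase that starts centrosome separation, was higher at 4955 ± 1652 in Whsc1-KO and 2393 ± 403 in WT (1.00, 0.000884, or 0.55 without Whsc1-KO replicates 4 to 6). Of 19 polarity genes 17 were tested, and 4 were lower, 6 higher and 7 did not pass (median 0.07). Mpp5, beside Gphn, was the furthest down of these. Prkcz, the zeta form of atypical protein kinase C, was higher at 1174 ± 241 in Whsc1-KO and 247 ± 75.0 in WT (2.28, 2.73e-06), and its partner Pard6g was lower at 182 ± 20.9 and 345 ± 52.5 (-0.92, 5.5e-05).

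On the cofactor side of gephyrin's work, 8 of 10 molybdenum cofactor genes were tested, with 2 lower, 3 higher and 3 not past (median 0.06). The steps were small: Nfs1 was higher by 0.25 (limma adjusted p = 0.000834) and Mocs3 by 0.33 (0.0133), and Mocs1 fell by 0.23 (0.0118). Without Whsc1-KO replicates 4 to 6 the calls of Mocs3 (0.33, limma adjusted p = 0.082) and Mocs1 (-0.16, 0.16) were lost, and Nfs1 stood at 0.19 (0.0272).

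The shuttle and arginine list around Slc25a13 leaned upward, with 7 of 13 tested genes higher, 2 lower and 4 not past (median 0.46). Mdh2, the mitochondrial malate dehydrogenase, averaged 9912 ± 1904 normalized counts in Whsc1-KO and 6138 ± 345 in WT (0.67, limma adjusted p = 0.000229), and its cytosolic counterpart Mdh1 averaged 10370 ± 1361 and 7333 ± 390.2 (0.49, 0.000276). Slc25a10, the dicarboxylate carrier, averaged 1207 ± 407 in Whsc1-KO and 497 ± 78.6 in WT (1.22, 0.000276). Without Whsc1-KO replicates 4 to 6 these log2 fold changes were 0.43 for Mdh2, 0.34 for Mdh1 and 0.77 for Slc25a10, each still past the threshold. Slc25a12, the other aspartate-glutamate carrier, was among the 2 that were lower (-0.28).

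Genes whose log2 levels followed the 8 most closely over the 13 libraries were sought among the tested genes outside the 8. They were Tspan5 for Cntln (r = 0.981) and Rfx3 (r = 0.991), Abi2 for Slc25a13 (r = 0.988), Fas for Pard3b (r = 0.987), Mpp5 for Gphn (r = 0.991), Bicd1 for Klf8 (r = 0.95), Chic1 for Tnik (r = 0.991) and Arsb for BC026585 (r = 0.984). These libraries fall into 2 genotypes, and r rests mainly on the step between them. With the group means taken out, r was 0.93 for Slc25a13 with Abi2 but 0.26 for Cntln with Tspan5. In Whsc1-KO, Tspan5 stood at 19.2% of WT, Abi2 at 23.7% and Chic1 at 4.70%, which is under the 8.87% of BC026585.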

How the data were processed

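RNA of 13 libraries was analysed, 6 Whsc1-KO and 7 WT. The submitters' processing notes name 2 builds, mm9 and GRCm38, and the tools DESeq2 1.10.1, RSEM 1.2.28 and STAR 2.5.1b, without saying which did what. The authors deposited a signal value per gene, which the values show to be a count divided by 1 factor per library: 100% were whole multiples of a step, within 0.05 reads, so reads could be recovered. The authors' deposited table of log2 fold changes, scores and p-values was used only for the values credited to it, and the deposited lists of enriched terms with their ratio and percent columns were not used. Genes were compared on log2(normalized count + 1) in limma 3.58.1, allowing the variance to follow the mean, by two-sided tests with Benjamini-Hochberg adjustment over 13947 genes. A fold change on this scale understates low genes. Alternatives included edgeR 4.0.16 and DESeq2 1.42.0 on recovered reads, in R 4.3.3; Python 3.11.15 prepared tables and plots. They called 3469 genes lower and 3706 higher (edgeR) and 3691 and 3870 (DESeq2). The scripts were checked on simulated counts. The closest libraries of a group, Whsc1-KO replicates 4 and 5, differed by a chi-square of 27.7 per gene and were counted separately.

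Positions come from GENCODE M21 (GRCm38), matched by identifier for 47224 of 47643 genes; BC026585 carries the name Cryzl2 there. The genes, lists and tests were chosen with earlier results of these data known. Named are the 8 genes, Whsc1, all flanking genes past the threshold and up to 4 others, and up to 3 genes of each list with the smallest adjusted p. Also named are the tested gene outside the 8 that is most alike to each of them, and genes ranked among or just after the 8. The genes of 1 related list are counted in the totals and not reported here. Fam71d and Slc25a12 were named after their values were seen, and Slc1a1 because 1 library stood apart.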

Additional observations from a re-analysis of the deposited data

Results flagged for a closer look

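Of 46 groups checked (23 genes in 2 genotypes), 5 held a library far from its group, and chance alone gives about 1 in 20. Klf8 had 1272 normalized counts in WT replicate 3, where the other WT libraries had 158 to 275. Rfx3 had 860.3 in the same library, where the others had 1177 to 1316. Among flanking genes, Slc1a1 near Rfx3 had 207 in Whsc1-KO replicate 3, with the others at 65.2 to 108. Nrp2 near Pard3b had 1050.3 in WT replicate 2, with the others at 355 to 577. Rasal2 near BC026585 had 188 in WT replicate 1, with the others at 99.98 to 135.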

How the results depend on the processing

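In the 8 genes, chosen on this contrast, the groups did not overlap, so their negative sign under all 25 alternatives adds no support. The log2 fold changes ran from -6.77 to -5.20 in Cntln, from -6.64 to -3.99 in Slc25a13 and from -4.07 to -2.88 in BC026585. The median share left ranged from 3.41% to 4.01% with any 1 library left out. Without Whsc1-KO replicates 4 to 6, 2177 genes were lower and 1947 higher, against 3588 and 3636 over all libraries; 0 flanking genes and 19 related genes were higher, against 1 and 30. Within replicates 1 to 3 of both groups, 1222 genes were lower and 947 higher, 0 flanking genes were higher, and 16 related genes were lower and 16 higher. Fut8 turned to -0.56 and -0.65 in these settings, against 0.02. The flanking genes called higher were 2 with Xist as a covariate, 2 without the filter, and 4 within replicates 4 and later, a setting chosen after seeing the data; they ranged from 1 to 2 with 1 library left out. Of the nearest flanking gene on each side alone, 3 were lower, against 5. With 1 library left out, 3148 to 3723 genes were lower and 3135 to 3776 higher. The cause of these differences was not tested.

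Whsc1-KO and WT libraries of the same number did not deviate together (r from -0.108 to 0.206, and 2 of 6 numbers matched best to their own), so the numbers were not taken as pairs. With a replicate block 3085 genes were lower and 3023 higher, and 2 flanking genes were higher. Depth limits values at or under 3 reads, which cannot be told from none.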
